A study of Mus musculus with 51 samples.

Results

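Some mice of a mammary tumor model carried more than 1 tumor, which allows the spread between tumors of 1 mouse to be set against the spread between mice, gene by gene. The tumors compared here were the unsorted primary mammary tumors of every mouse that contributed 2 or more of them by specimen name. They comprised 14 arrays from 6 mice, out of 51 arrays from 32 mice of origin in the whole series. One mouse gave 4 tumors and 5 mice gave 2 each. All were Wap-Cre;Etv6-NTRK3 mice, in which Cre driven by the promoter of a milk protein gene switches on a conditional Etv6-NTRK3 knockin allele in mammary epithelium. The series design also describes a Rosa-Stop-lacZ reporter at the Rosa26 locus, which marks the recombined cells. Unsorted means that a whole tumor was extracted, with its stroma, vessels, immune cells and fat, so a lower level in these bulk samples may stand for fewer cells of a type or for less RNA per cell, and these cannot be told apart. Strain background, litter, age, parity and tumor site are not given in the sources used here. The 6 groups of the series also hold 9 further unsorted primary tumor arrays from 8 other mice, 8 sorted primary tumor arrays from 6 mice and 4 unsorted transplanted tumor arrays from 2 origins, which were used for scale.

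Etv6-NTRK3 joins the dimerization domain of a transcription factor to the kinase domain of a neurotrophin receptor and signals through the RAS-MAPK and PI3K pathways. Separate tumors of 1 mouse share a germline genome, an age, a hormonal state and a housing history. Each may still arise from its own recombined cells and recruit its own stroma and vessels, which the labels do not state. Low oxygen, for example, stabilizes hypoxia-inducible factor (HIF), which binds a short DNA core near genes for glucose uptake, glycolysis and its own hydroxylases.

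Levels are log2 intensities, with intensities under 32 set to 32, so that 5.00 is the lowest value possible. Of the markers of the tissue label, Krt8 and Csn2 were high in every tumor. The luminal keratin Krt8 read 11.39 at the lowest, 12.34 at the median and 13.10 at the highest over the 14 tumors, and the casein gene Csn2 read 11.20, 13.43 and 13.50. Other milk genes were low in some tumors: Wap read 6.46 to 10.53, and Glycam1 5.00 to 13.62 with 2 tumors at the floor. The array medians of these tumors ranged from 49.2 to 53.6 intensity units, and 36.6% to 38.9% of probe sets lay at the floor. No probe set was named for the fusion itself. Etv6, one partner of the fusion, read 7.24 to 9.20 with an intraclass correlation of 0.65. Its adjusted p between mice was 0.0989 by limma's moderated F test, above the threshold used below. The 1 other Etv6 probe set tested did pass that threshold, and the gene itself passed under 2 of 35 alternative settings. Ntrk3 read 5.07 to 6.80 with an intraclass correlation of 0.14.

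Over all genes the tumors of 1 mouse were closer to each other on average than tumors of different mice. The distance between 2 arrays is the root mean square of their log2 differences over 13679 genes. The 11 pairs of tumors from 1 mouse lay 0.36 to 0.76 apart with a median of 0.63. The 80 pairs from different mice lay 0.40 to 0.80 apart with a median of 0.68. The ranges thus overlapped almost wholly, and 22 of the 80 pairs from different mice were closer than the median pair from 1 mouse. The means were 0.59 and 0.66, a difference of -0.070, with an exact one-sided permutation p of 0.0236 over all 945945 assignments of the 14 arrays to mice. Leaving out mouse D14 took the difference to -0.034 with an exact p of 0.154, and leaving out either of its tumors or either tumor of mouse D254 also took the p above 0.05, to between 0.0607 and 0.113. Leaving out tumor D14T2 took the difference to -0.040. The mouse with 4 tumors, C117, gave 6 of the 11 pairs, 0.58 to 0.76 apart, and without it the difference was -0.146 with an exact p of 0.00212. Without its tumor C117T6 it was -0.116 with an exact p of 0.00155. The nearest array was a tumor of the same mouse for 4 of the 14 tumors.

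**Figure D1:**
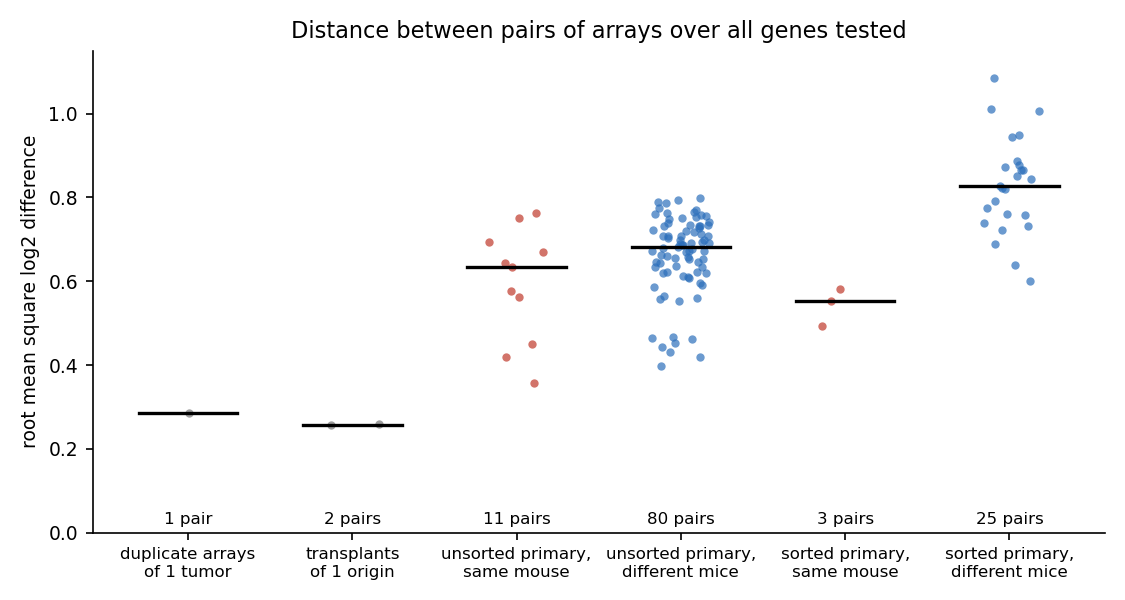
Distance between pairs of arrays (vertical axis, root mean square log2 difference over all genes tested) for 6 kinds of pair (horizontal axis, with the number of pairs); each point is a pair and each line a median. Pairs from 1 mouse (median 0.63) and from different mice (median 0.68) overlap among the unsorted primary tumors, and both lie above the duplicate arrays of 1 tumor (0.28).

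For scale, the 2 arrays of 1 tumor of another mouse lay 0.28 apart, and the 2 pairs of transplants that shared an origin lay 0.26 apart each. Transplants of different origins lay 0.64 to 0.68 apart over 4 pairs. A pair of separate primary tumors of 1 mouse therefore lay farther apart than the pairs of arrays that shared a tumor or a tumor origin in every case. The duplicate arrays and the transplants of origin CR90 had 41.4% to 42.9% of probe sets at the floor, against 36.6% to 38.9% in the 14 tumors. The transplants of origin CR115 had 38.3% and 39.3%. Whether more values at the floor shortened these distances was not tested.

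Gene by gene, most of the spread lay between tumors of 1 mouse. The share of a gene's variance that lies between mice was estimated as the intraclass correlation, which is 1 when tumors of a mouse are identical and different mice are not, near 0 when the mouse makes no difference, and below 0 when tumors of 1 mouse differ more than tumors of different mice. Its median over 13679 genes was 0.23, with quartiles of -0.04 and 0.48. It was below 0 for 28.3% of genes and above 0.5 for 23.3%. The median standard deviation (SD) within mice was 0.27 and the median SD of the 6 mouse means was 0.24, which still includes part of the spread within mice. The SD estimated from the duplicate arrays of 1 tumor had a median of 0.11.

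Levels of 297 genes (2.17% of 13679) differed between mice at an adjusted p under 0.05 by limma's moderated F test with Benjamini-Hochberg adjustment, and 3007 genes (22%) had an unadjusted p under 0.05. The called genes had a median SD of mouse means of 0.60 against 0.25 within mice. With mice as groups, tumor ranges of 2 mice did not overlap in a median of 11 of the 15 pairs of mice for the called genes, against 6 of 15 for all genes. Both contrasts follow from choosing the called genes by a test on these same tumors and are no further support. The called genes were also more spread among mice that the test did not use, given here as a description. Their median SD over the 8 other mice with 1 tumor was 0.39, against 0.31 for all genes tested. Their median SD from the duplicate arrays of 1 tumor was higher as well, 0.13 against 0.11, so the wider spread is not particular to mice. The count depended on the mice: it was 73 without mouse D14, 103 without D254, 134 without B459, 160 without C395 and 555 without C117, the mouse with 4 tumors. It was also 61 and 86 without the respective tumors D14T2 and D14T1, 68 without either tumor of D254, 87 and 86 without C395T2 and C395T5 and 194 without B459L, and without C117T6 it was 3.41% of the genes tested. Tested 1 probe set at a time, an alternative chosen after seeing the data, 1202 of 24155 probe sets (4.98%) were called.

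Measures of array handling differed between mice as well. The level of the hybridization spike-ins, which are added after extraction and carry no tissue signal, had mouse means from 8.07 to 9.05, and its ratio of variance between to within mice was 7.92, with an exact permutation p of 0.0313 after adjustment over 5 measures. The 3' to 5' ratio of Actb, a measure of RNA integrity, the array median and the share of probe sets at the floor each had an adjusted exact p of 0.0457, and the Gapdh ratio 0.236. With the spike-in level in the fit the count of called genes was 105, of which 93 were among the 297. With the Actb ratio it was 56, all among the 297, and with the Gapdh ratio 124, of which 118 were. Leaving out mouse C117 took the adjusted exact p of all 4 measures that passed to 0.233, and leaving out B459 took them to 0.0703 for the spike-ins and 0.213 for the other 3. The arrays of each mouse stand next to each other in the deposited order, so mouse and joint handling cannot be told apart.

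**Figure D2:**
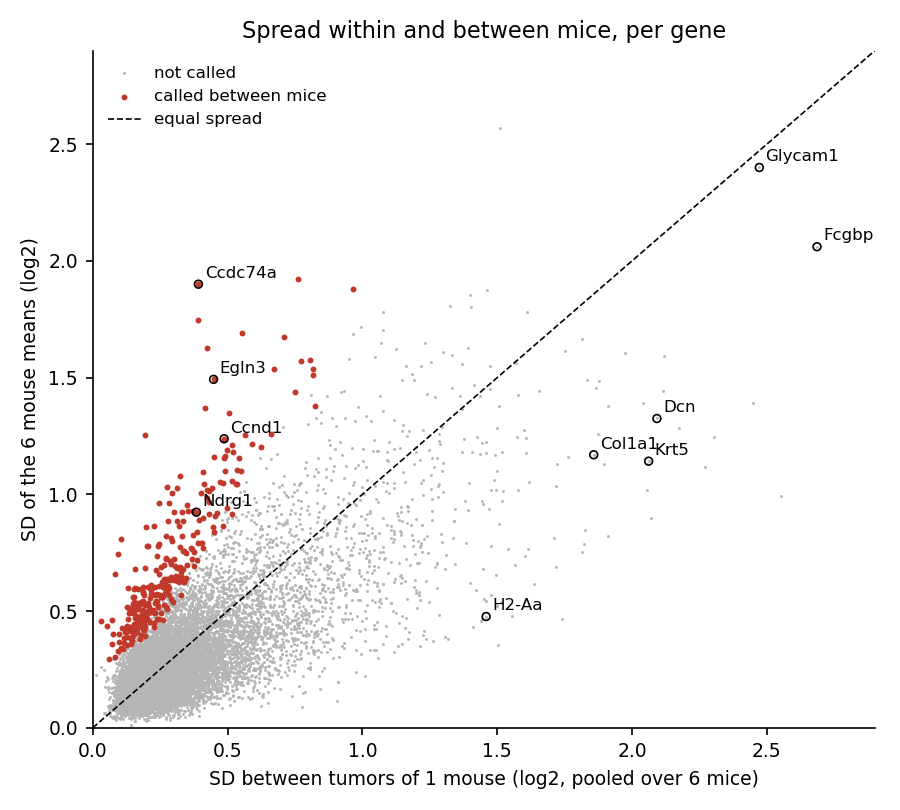
SD between tumors of 1 mouse (horizontal axis, log2) and SD of the 6 mouse means (vertical axis, log2) for each of 13679 genes, with called genes in red, other genes in gray and equal spread as the dashed line. Egln3, Ndrg1, Ccnd1 and Ccdc74a lie far above the line, and H2-Aa, Krt5, Col1a1 and Dcn lie below it.

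Genes of the hypoxia and glycolysis list had the highest median intraclass correlation of the 30 gene lists described. Of 16 genes tested, 3 were called (against 2.17% of all genes), 13 had an unadjusted p under 0.05 (against 22%), and the median intraclass correlation was 0.62 against 0.23 for all genes. These counts describe the list, which was drawn up with earlier results of these data known. The called genes were Egln3, a prolyl hydroxylase that marks HIF for degradation and is itself a HIF target, Ndrg1, a stress-responsive gene induced by low oxygen, and Bnip3, which acts in mitophagy under hypoxia. RefSeq promoters (GRCm38.p6, 300 bases each) were matched for 15 of the 16 genes, Ndrg1 being the exception. The HIF core was searched as ACGTG or GCGTG on both strands, where a site read on both strands or overlapping another was counted each time. It was found in 17 of the 20 promoters of the list and in 14380 of all 32851 promoters (43.8%). The promoters of the called genes Egln3 and Bnip3 are shown because HIF binds such cores near its targets, with every core in capitals. The Egln3 window at chr12:54203825-54204124, minus strand, holds 1 match and the Bnip3 window at chr7:138909457-138909756, minus strand, holds 5. A match is a string of letters and not a measured site.
Egln3: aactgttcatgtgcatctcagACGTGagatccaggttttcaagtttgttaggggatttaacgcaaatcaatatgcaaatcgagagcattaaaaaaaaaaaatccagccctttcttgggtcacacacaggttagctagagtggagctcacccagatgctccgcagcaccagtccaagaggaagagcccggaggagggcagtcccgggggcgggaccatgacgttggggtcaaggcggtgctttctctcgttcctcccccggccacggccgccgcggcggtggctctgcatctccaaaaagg
Bnip3: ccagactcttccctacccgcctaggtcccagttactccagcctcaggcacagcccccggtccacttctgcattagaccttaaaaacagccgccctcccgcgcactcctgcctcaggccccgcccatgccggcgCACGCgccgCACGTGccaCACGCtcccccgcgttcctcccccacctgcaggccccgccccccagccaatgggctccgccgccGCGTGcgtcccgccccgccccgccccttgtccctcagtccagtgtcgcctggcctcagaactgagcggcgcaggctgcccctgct

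Egln3 levels in the tumors of the 6 mice, taken in the order of their means, were 7.40 and 7.67, then 8.13, 8.22, 8.76 and 9.16, then 9.06 and 9.76, then 10.60 and 10.75, then 10.30 and 11.36, and last 11.23 and 11.56. Tumor ranges did not overlap in 12 of the 15 pairs of mice. The highest mouse mean was 14.5 times the lowest, while the widest gap within a mouse was 2.08-fold, and the adjusted p was 0.00497. Its other probe set was called too, and it was called under all 35 alternative settings.

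Ndrg1 read 9.10, 9.36, 9.80 and 10.05 in the mouse with the lowest mean, then 10.36 and 10.99, 10.82 and 11.15, 11.35 and 11.58, 11.59 and 12.29, and 11.81 and 12.31 in the others. Ranges were separate in 13 of 15 pairs of mice, the highest mouse mean was 5.59 times the lowest, and the adjusted p was 0.0115. The call of Ndrg1 held under 32 of 35 alternatives (adjusted p 0.0103 to 0.160), and 3 of its 4 other probe sets tested were called. Bnip3 read 7.82 at the lowest, 9.19 at the median and 10.51 at the highest, with 9 of 15 pairs of mice apart and an adjusted p of 0.0491, and its call held under 9 of 35 alternatives (adjusted p 0.0300 to 0.239). The order of the mice was not the same for all 3 genes: the mouse with the lowest Ndrg1 was not the one with the lowest Egln3 and Bnip3.

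Other members of the list had high shares between mice without passing the adjusted threshold. The glucose transporter Slc2a1 had an intraclass correlation of 0.73 (adjusted p 0.0542), lactate dehydrogenase Ldha 0.80 (0.0831) and the collagen prolyl hydroxylase P4ha1 0.71 (0.0630). The members with low shares were Pdk1 (0.10), which restrains pyruvate entry into mitochondria, hexokinase Hk2 (0.11), and Car9 (-0.05), a membrane carbonic anhydrase. Car9 read 5.66 to 8.84 with gaps of up to 5.93-fold within a mouse. The mean of the gene-centred log2 values of the list, its score, ranged over mouse means from -0.92 to 0.83, with a widest gap within a mouse of 0.75. The count of called genes in the list was 1 by the ordinary F test and 1 with the spike-in level in the fit, and it was 6 without mouse C117 or its tumor C117T1 and 5 without its tumor C117T6. The endothelial list score moved in the same direction as this score in 4 of the 11 pairs of tumors of 1 mouse and the mitosis score in 7. Whether vessels, proliferation or the array measures had a part in the result was not tested.

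**Figure D3:**
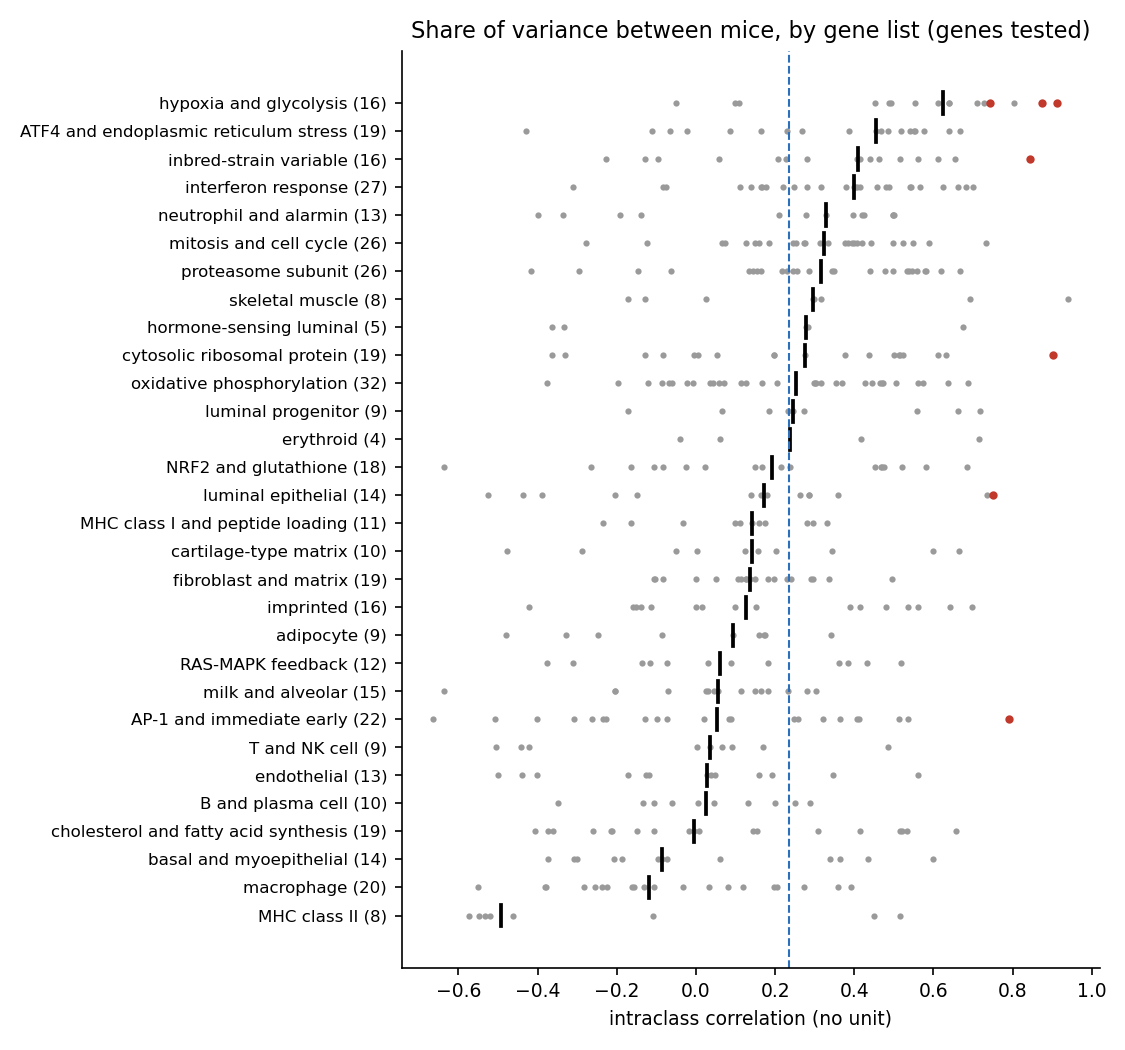
Intraclass correlation (horizontal axis, no unit) of each gene in 30 gene lists (vertical axis, with the number of genes tested); gray points are genes not called, red points genes called between mice, black bars list medians and the dashed line the median of all genes, 0.23. The hypoxia and glycolysis list has the highest median (0.62) and the MHC class II list the lowest (-0.49).

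The ATF4 and endoplasmic reticulum stress list came next, with no called gene among 19 (against 2.17% of all genes), 8 with an unadjusted p under 0.05 (against 22%) and a median intraclass correlation of 0.46. ATF4 and the unfolded protein response raise amino acid synthesis and chaperones under nutrient or folding stress. The chaperone Hspa5 (0.64) and the stress sensor Sesn2 (0.67) had among the highest shares, with adjusted p-values of 0.112 and 0.128. Trib3 (0.09), a pseudokinase induced by ATF4, and Herpud1 (-0.43) had low ones. The amplitude was small: the median SD of mouse means over the list was 0.32, against 0.81 in the hypoxia and glycolysis list.

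Interferon response genes had both a wide spread between mice and a wide spread within them. None of 27 was called (against 2.17% of all genes), and 14 had an unadjusted p under 0.05 (against 22%). With so few genes per list, 0 or 1 called gene here and in the lists below does not set a list apart from that share. The median intraclass correlation was 0.40, and the median SDs were 0.94 within mice and 1.04 between mouse means. The interferon-induced gene Xaf1 (0.70), the 2'-5' oligoadenylate synthetase Oas2 (0.68) and the deconjugating enzyme Usp18 (0.66) led the list with adjusted p-values of 0.0615, 0.0666 and 0.0733. Usp18 differed 18.3-fold between the highest and lowest mouse mean, and up to 10.96-fold between tumors of 1 mouse. Ifit1, which binds viral RNA, read 5.52 and 5.55, then 5.23 and 6.76, then 6.18, 6.47, 9.07 and 9.98, then 7.81 and 8.85, 8.46 and 8.83, and 8.34 and 9.29. In this gene 2 mice were low in both tumors, 3 were high in both, and the mouse with 4 tumors spanned both levels. Without that mouse, C117, 12 of the interferon response genes were called, and 2, 4 and 1 were called without its tumors C117T1, C117T5 and C117T6.

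The genes for antigen presentation had lower shares between mice than the interferon response genes. None of 11 genes for MHC class I and peptide loading was called (against 2.17% of all genes). None had an unadjusted p under 0.05 (against 22%), and the median intraclass correlation was 0.14. The class I score still moved in the same direction as the interferon score in all 11 pairs of tumors of 1 mouse.

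MHC class II genes, which present peptides on macrophages, dendritic cells and B cells, had the lowest median of the 30 lists, -0.49. Of 8 genes tested none was called (against 2.17% of all genes) and none had an unadjusted p under 0.05 (against 22%). The median SD was 1.08 within mice and 0.36 between mouse means. H2-Aa, a class II alpha chain, read 8.30 and 11.46 in 1 mouse, 9.63 and 10.76 in the next, then 7.84, 10.34, 10.88 and 12.17, then 10.47 and 10.50, 9.91 and 11.30, and 10.77 and 11.81. Tumors of 1 mouse differed by up to 20.1-fold, while mouse means differed by 2.65-fold at most, and ranges were separate in 2 of 15 pairs of mice. H2-Eb1 (-0.55), H2-Ab1 (-0.57) and the invariant chain Cd74 (-0.53) had the same pattern, while H2-Ea (0.52), at 5.60 to 6.36, and the class II transactivator Ciita (0.45), at 5.92 to 6.96, had shares above the median of all genes.

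Macrophage markers had a median intraclass correlation of -0.12, and all 20 had a larger SD within mice than between mouse means. None of the 20 was called (against 2.17% of all genes), and 1 had an unadjusted p under 0.05 (against 22%). Csf1r (-0.38), the receptor for the macrophage growth factor, and the complement gene C1qa (-0.38) read 8.07 to 10.21 and 8.93 to 11.62. The macrophage score moved in the same direction as the MHC class II score in all 11 pairs of tumors of 1 mouse, the B and plasma cell score in 7, the T and NK cell score in 8 and the interferon score in 9. Pairs from the mouse with 4 tumors share tumors and are not independent. No gene of the 9 tested for T and NK cells and of the 10 for B and plasma cells was called or had an unadjusted p under 0.05, with medians of 0.04 and 0.03. The neutrophil and alarmin list had a median of 0.33 with 0 of 13 called and 4 with an unadjusted p under 0.05, and the alarmin S100a8 read 6.90 to 11.74 (0.42).

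**Figure D4:**
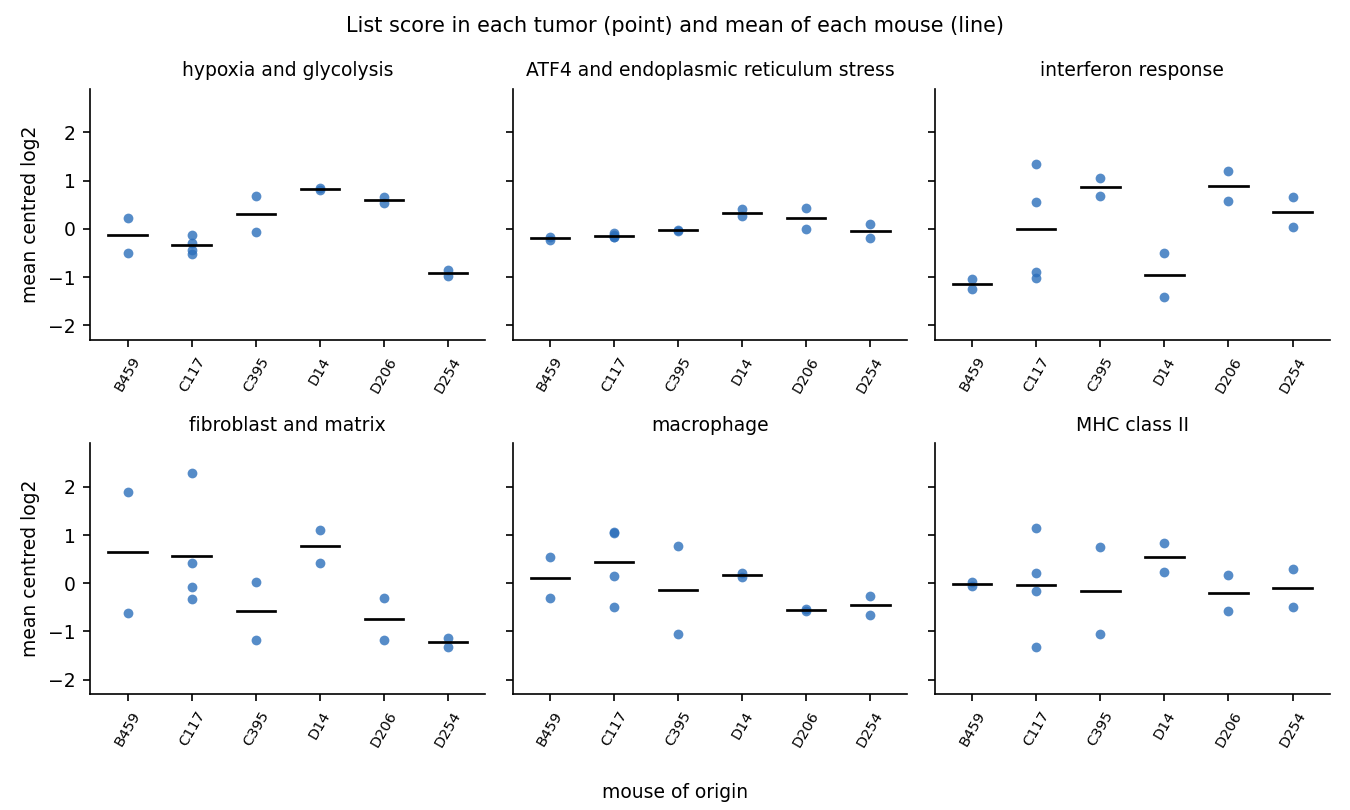
List score (vertical axis, mean of gene-centred log2 values) in each of the 14 tumors (points) by mouse of origin (horizontal axis), with the mean of each mouse as a line, for 6 gene lists. Hypoxia and glycolysis scores differ between mice (mouse means -0.92 to 0.83), and MHC class II scores differ within mice by up to 2.45.

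The fibroblast and matrix list had the largest median SD within mice of the 30 lists, 1.13, beside 0.97 between mouse means. Its median intraclass correlation was 0.14. None of 19 genes was called (against 2.17% of all genes), and 1 had an unadjusted p under 0.05 (against 22%). Col1a1, a chain of type I collagen, read 7.12 and 7.44 in the mouse with the lowest mean, then 7.72 and 9.71, 8.27 and 9.22, then 8.05, 8.07, 10.62 and 12.16, then 7.52 and 12.42, and 9.90 and 11.21. The widest gap within a mouse was 29.8-fold and the mouse means differed by 9.72-fold (adjusted p 0.596). The proteoglycan Dcn ranged from 5.00 to 11.16 (adjusted p 0.525). The duplicate arrays of 1 tumor differed by 1.90 in Dcn and by 0.74 in Col1a1, so part of such gaps was also present between 2 arrays of 1 tumor. The endothelial score moved in the same direction as the fibroblast score in 9 of 11 pairs of tumors of 1 mouse. Endothelial genes had a median of 0.03 and adipocyte genes 0.09, and 0 of 13 and 0 of 9 were called or had an unadjusted p under 0.05. The fatty acid binding protein Fabp4 of fat cells read from 5.00 to 11.52, and Car3, a carbonic anhydrase abundant in fat and muscle, from 5.00 to 11.55 with 6 tumors at the floor.

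Most genes of epithelial differentiation had a larger SD within mice than between mouse means: 11 of 14 basal and myoepithelial, 15 of 15 milk and alveolar and 11 of 14 luminal genes, against 61.9% of all genes. Basal and myoepithelial markers had a median intraclass correlation of -0.09. Of 14 tested, 0 were called (against 2.17% of all genes) and 2 had an unadjusted p under 0.05 (against 22%). The basal keratin Krt5 read 6.66 and 7.52, then 5.71, 5.96, 10.64 and 10.81, then 6.47 and 10.45, 8.20 and 9.93, 9.71 and 10.24, and 9.91 and 10.36, so that 2 mice held tumors both low and high. Its widest gap within a mouse was 34.4-fold (adjusted p 0.691). Krt14 (-0.31), Krt17 (-0.10) and the transcription factor Trp63 (-0.30) had shares below 0 as well. Milk and alveolar genes had a median of 0.06 with 0 of 15 called or with an unadjusted p under 0.05. Without tumor B459L 2 of them were called, and 4 without B459U. The milk and alveolar score was -1.91 in B459L and 0.76 in B459U, its widest gap within a mouse (2.67). The next lowest score was -0.59, in tumor C395T2, so the widest gap rests on 1 tumor. Csn2 varied by up to 4.75-fold within a mouse. Its median of 13.43 lay close to its highest value of 13.50, so gaps at this brightness may be compressed, which was not tested. Glycam1, a mucin secreted into milk, read 5.00 and 13.62 in the tumors of 1 mouse, a gap of at least 394.8-fold because the lower value is the floor. The luminal list had 1 called gene of 14 (against 2.17% of all genes), the keratin Krt19. Its mouse means differed by 5.21-fold (adjusted p 0.0464, called under 9 of 35 alternatives). Krt18, another luminal keratin, had an intraclass correlation of -0.39. Of the 9 luminal progenitor genes none was called and 3 had an unadjusted p under 0.05, and Aldh1a3, an aldehyde dehydrogenase, came closest (0.72, adjusted p 0.0567). The estrogen receptor Esr1 (0.28) read 5.52 to 7.40 and the progesterone receptor Pgr (-0.36) 5.34 to 7.64.

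**Figure D5:**
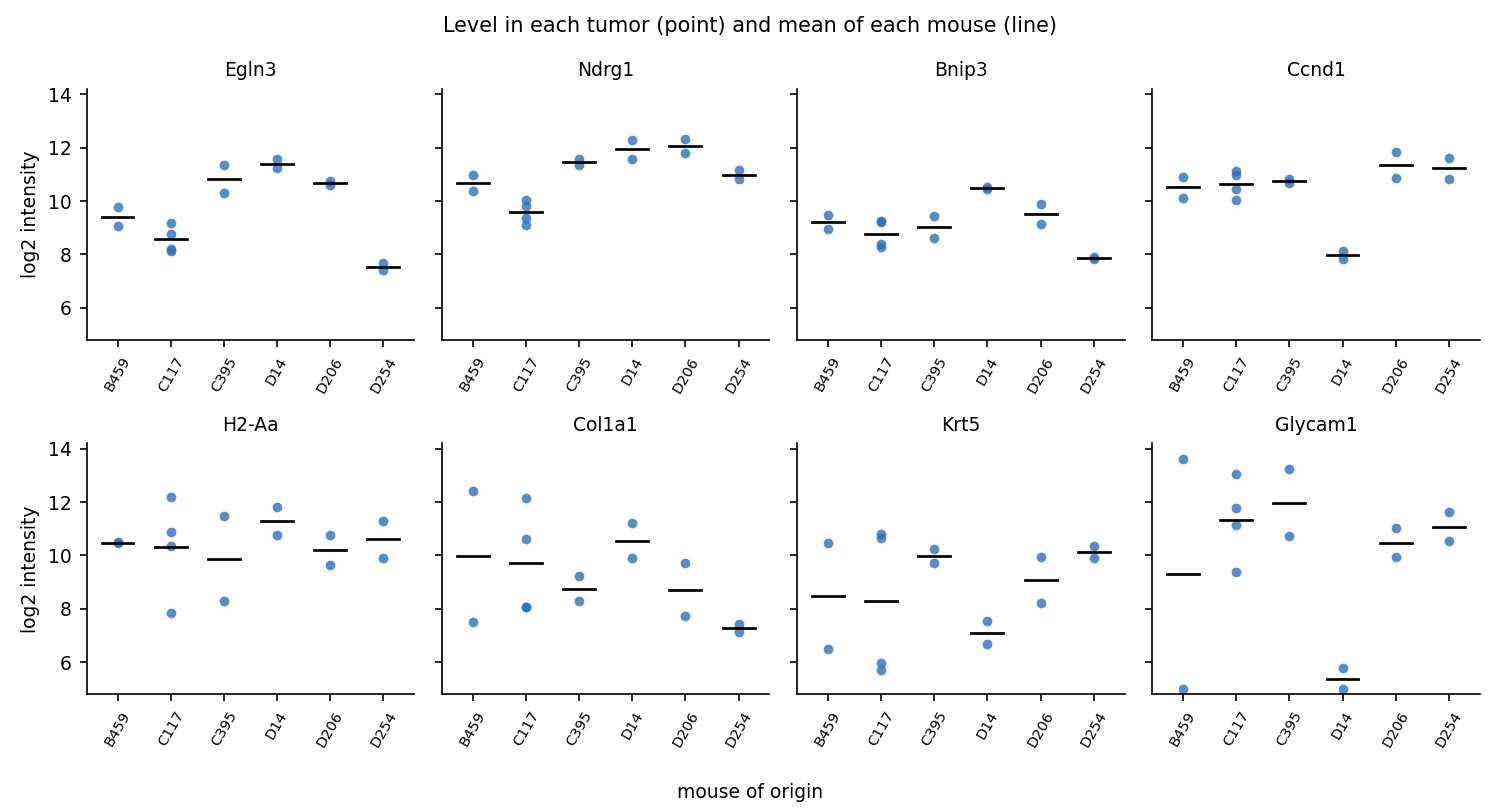
Log2 intensity (vertical axis, floor 5.00) of 8 genes in each of the 14 tumors (points) by mouse of origin (horizontal axis), with the mean of each mouse as a line. In the upper row (Egln3, Ndrg1, Bnip3, Ccnd1) tumors of 1 mouse lie within 2.13-fold of each other, and in the lower row (H2-Aa, Col1a1, Krt5, Glycam1) the widest gap within a mouse is 20.1-fold or more.

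Signalling and growth genes were mixed. Of 22 AP-1 and immediate early genes, 1 was called (against 2.17% of all genes), the growth regulator Myc. It read 6.96 at the lowest, 8.65 at the median and 9.35 at the highest, with 12 of 15 pairs of mice apart. Its adjusted p was 0.0418, and its call held under 14 of 35 alternatives. The median of that list was 0.05, and Fos (-0.31), whose RNA is induced within minutes of a stimulus, read 7.03 and 10.25 in tumors of 1 mouse. RAS-MAPK feedback genes had a median of 0.06 with 0 of 12 called and 2 with an unadjusted p under 0.05 (against 22% of all genes). The phosphatase gene Dusp4 differed by up to 14.8-fold within a mouse. Mitosis and cell cycle genes had 0 of 26 called, 8 with an unadjusted p under 0.05 and a median of 0.32. Mki67, a marker of cycling cells, read 8.16 to 10.20 (0.27), and Cdc20, which drives exit from mitosis, had the highest share (0.73, adjusted p 0.0992).

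Ccnd1, the cyclin D1 gene that drives entry into the cell cycle, was called at an adjusted p of 0.0188, with its 2 other probe sets called too. Its tumors read 7.81 and 8.14 in 1 mouse and 10.03 to 11.85 in the other 5. Without that mouse, D14, the adjusted p was 0.579. The 12 called genes with the largest SD of mouse means among the brighter genes also included Ccdc74a, a coiled-coil gene of little known function, at an adjusted p of 0.00056. It read 7.21 to 8.49 in the 8 tumors of 3 mice and 10.86 to 11.68 in the 6 tumors of the others, and was called under all 35 alternatives, although none of its 3 other probe sets tested was. The transcription factor Tfcp2l1 read 5.00 to 10.43, with 13 of 15 pairs of mice apart and mouse means at least 32.7-fold apart (adjusted p 0.0150), since the lowest mean includes a tumor at the floor. Its 1 other probe set tested was not called. The Polycomb gene Cbx6 read 5.83 to 10.21 (0.0293) and the kinase gene Camkk2 7.25 to 11.45 (0.0221). Camkk2 read 10.18 and 11.45 in mouse D14 and 7.25 to 8.86 in the other 5. Its call held under 29 of 35 alternatives (adjusted p 0.0134 to 0.402). The others were Hacd1 (0.0153), Erdr1 (0.0195), Plb1 (0.0404), Flrt3 (0.0417), Upp1 (0.0433) and St6galnac1 (0.0438), given with their adjusted p-values. The other probe sets tested were not called for Erdr1 (1) and Plb1 (2). They were called for Cbx6, Hacd1 and Flrt3 (1 each), and 2 of 3 were for Camkk2. Of these 12, Egln3 and Ccdc74a held their call under all 35 alternatives, and St6galnac1 under 8.

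The 12 genes with the largest SD within mice among brighter genes that were not called were Fcgbp, Glycam1, Apod, Krt6a, Bex1, Fabp3, Dcn, Krt5, Cpm, Lao1, Fabp4 and Pigr, with SDs within mice from 1.91 to 2.69. Fcgbp, a secreted mucin-like protein, read 5.00 to 13.11 with a gap of 7.06 between tumors of 1 mouse. Apod, a lipid carrier, read 5.16 to 11.98, and Pigr, which carries immunoglobulin A into milk, read 5.25 to 10.85.

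Genes known to vary between inbred strains had a median intraclass correlation of 0.41, with 1 of 16 called against 2.17% of all genes. That gene was Alad, a heme synthesis enzyme, which read 6.86 to 8.54 (adjusted p 0.0390), and its neighbour Hdhd3 had 0.65. Ifi202b (-0.10), an interferon-inducible gene that also differs between strains, read 5.00 to 8.52 with 9 tumors at the floor. Imprinted genes had a median of 0.13 with 0 of 16 called and 7 with an unadjusted p under 0.05 (against 22%), from Impact (0.70) and Peg3 (0.64) to the growth factor Igf2 (-0.16), which differed by up to 12.2-fold within a mouse. Genes for cytosolic ribosomal proteins had 1 of 19 called, Rpl27a, at 7.18 to 9.51 and an adjusted p of 0.0113, and their median SD within mice was 0.13. The duplicate arrays of 1 tumor differed by 0.95 in Rpl27a, more than its widest gap within a mouse, 0.63. The remaining lists had no called gene. The medians of 32 oxidative phosphorylation genes (0.25) and 26 proteasome subunit genes (0.32) were near that of all genes, with 3 and 4 at an unadjusted p under 0.05. Those of 18 NRF2 and glutathione genes (0.19), 10 cartilage-type matrix genes (0.14) and 19 cholesterol and fatty acid synthesis genes (-0.01) were lower, with 6, 2 and 4 at an unadjusted p under 0.05. The scores of these 3 lists had higher shares between mice than these medians. They were 0.29, 0.65 and 0.38, with 9, 10 and 10 of 15 pairs of mice apart. For the hypoxia and glycolysis score the share was 0.81, with 12 pairs apart. The short lists of hormone-sensing luminal (5 genes, 0.28), skeletal muscle (8 genes, 0.30) and erythroid genes (4 genes, 0.24) had 1, 2 and 2. Xist, which silences 1 X chromosome in female cells, was high in every tumor (10.91 to 12.78), with an adjusted p of 0.0578 between mice.

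Sorted primary tumors, which the choice of arrays did not use, allowed the same comparison in 1 further mouse with 3 tumors against 5 mice with 1. Tumors of that mouse lay 0.49 to 0.58 apart (3 pairs, median 0.55) and tumors of different mice 0.60 to 1.09 apart (25 pairs, median 0.83), so the ranges did not overlap. The exact one-sided permutation p was 0.0179, the smallest that 8 arrays of these sizes allow. The 3 arrays of that mouse stand next to each other in the deposited order, with spike-in levels of 8.25 to 8.45 against 8.56 to 10.19 in the other 5, so mouse and joint handling cannot be told apart here either. None of 13237 genes (0%) was called by limma's moderated F test at an adjusted p under 0.05, and 4421 (33.4%) had an unadjusted p under 0.05, with 2 residual degrees of freedom and all spread within mice coming from 1 mouse. With log2(value + 32) in place of the floor 329 genes were called, and without tumor F433T1 of that mouse 898. Over these 8 arrays the median intraclass correlation was 0.60 for the hypoxia and glycolysis list, 0.02 for the interferon response list and 0.92 for the fibroblast and matrix list, against 0.71 over all genes. The difference between sorted and unsorted tumors in these shares was not tested.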

How the data were processed

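Total RNA of each tumor was hybridized to an Affymetrix MOE430.2 array, per the labels' protocols. The deposited table holds 1 intensity per probe set and array, on a linear scale; the summarization and scaling the authors applied are not given in the sources used here. Of 45101 probe sets, 64 control probe sets and 1 with an extreme value were left out of the tests. The platform annotation gave 1 gene symbol for 34944 probe sets, several for 932 and none for 9160, and 34740 matched RefSeq. Each gene was read from its probe set of highest mean log2 level across 51 arrays. Values were floored at 32 and log2 transformed. Genes above the 40th percentile of their array on at least 2 of the 14 arrays were tested (13679 of 18192).

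Differences between mice were tested with limma 3.58.1 in R 4.3.3 (1 mean per mouse, moderated F test with 5 and 8 degrees of freedom and a prior of 3.06, Benjamini-Hochberg over all genes, called at an adjusted p under 0.05). The intraclass correlation came from the mean squares, with negative estimates kept. Distances and array measures were tested by exact permutation. The fit and the permutation were tested on simulated data. The members and gene lists were chosen with earlier results of these data known. Named genes were the 12 called genes with the largest SD of mouse means and the 12 genes not called with the largest SD within mice, both above the median level, a fixed set (of which Cdkn2a and Trp53 did not pass the filter), and per list up to 3 called genes and the 2 with the largest SD within mice; other list members were named for their values, after these were seen, as was the HIF core search. The planned search for the interferon element was not run because fewer than 3 interferon genes were called. Each tumor is a separate specimen by its label. The number of arrays limits the precision, and alternatives are given in the closing section.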

Additional observations from a re-analysis of the deposited data

Results flagged for a closer look

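Among 135 sets of 6 mouse means (named genes, list scores and array measures), 5 had 1 mouse far from the others by Dixon's ratio. Chance alone gives about 1 in 20 such sets, so 5 of 135 is no more than chance gives. Some genes, Ccnd1 and Camkk2 among them, were named for a large SD of mouse means, which 1 distant mouse can bring about. The cyclin D1 gene Ccnd1 was low in 1 mouse, with a mean of 7.98 against 10.51 in the next lowest. The kinase gene Camkk2 was high in 1 mouse, with 10.82 against 8.31 in the next highest. The casein gene Csn2 was low in 1 mouse, with 12.32 against 13.24 in the next lowest, and the interferon-induced GTPase gene Iigp1 was low in 1 mouse, with 8.06 against 9.98. The MHC class II list score was high in 1 mouse, with 0.54 against -0.01 in the next highest. In Ccnd1 both tumors of the low mouse lay under every other tumor, whereas in Csn2 the low mean came from 1 tumor at 11.20 beside 1 at 13.45.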

How the results depend on the processing

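The count of 297 called genes stayed between 246 and 410 under other floors, log2(value + 32), quantile normalization, other filters, the mean of probe sets, eBayes with a trend or robust, and the first 2 tumors of the mouse with 4, though 174 of the 297 were shared when probe sets were averaged. It was 119 by the ordinary F test, 105 with the spike-in level, 56 with the Actb ratio and 124 with the Gapdh ratio as a covariate. With every probe set tested by itself, an alternative chosen after seeing the data, 1202 of 24155 probe sets (4.98%) were called. Leaving out a mouse or a tumor gave 61 to 555. The distance between tumors of 1 mouse and of different mice stayed negative, at -0.146 to -0.034 when a mouse or tumor was left out, and the exact p rose above 0.05 in 5 of 30 alternatives, all of them without mouse D14 or a tumor of D14 or D254. The median intraclass correlation was 0.32 with the first 2 tumors of the mouse with 4 and 0.16 to 0.33 when a mouse or tumor was left out. In the sorted tumors 1 gene was called with the floor at 16 and 329 with log2(value + 32), and 0 to 898 without 1 array. The cause of these changes was not tested. The 18 named genes that were called kept their call under 8 to 35 of 35 alternatives (median 25), and 11 of the 82 named genes not called were called under at least 1. No result reversed. Lists with no called gene had 1 to 3 called without mouse C117 or 1 of its tumors for the luminal progenitor, basal, cartilage-type, cholesterol, fibroblast, MHC class I, B and plasma cell and imprinted lists, beside the interferon response genes. The ATF4 and hormone-sensing lists each had 1 called without mouse D206 or 1 of its tumors, and the erythroid list 1 without B459 or 1 of its tumors. Of the array measures, spike-in level and Actb ratio also lost their call without D206 (adjusted exact p 0.0597 and 0.0674), and the array median and floor share without D206 (0.0674), C395 (0.0569) or D254 (0.0838). No paired analysis was possible because the tests compare mice, and tumor numbers of different mice do not pair. A mouse left with 1 tumor adds a mean and no spread, and that tumor is assumed to vary like the others. Depth has no equivalent here: 36.6% to 38.9% of probe sets lay at the floor in each tumor, where differences cannot be seen.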
